A study of Homo sapiens with 10 samples.

Results

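The subunits of the oxidative phosphorylation system, encoded in part by nuclear DNA and in part by mitochondrial DNA, were compared between ARPE-19 cells in high glucose and in control medium. ARPE-19 is an established human line of retinal pigment epithelium (RPE), the cell layer behind the photoreceptors. Members were taken by gene symbol (NDUFA, NDUFB, NDUFC, NDUFS and NDUFV with a number, SDHA to SDHD, UQCR, CYC1, COX4 to COX8, ATP5F, ATP5M and ATP5P, and the mitochondrial mRNAs), which gave 102 of the 22626 rows of the count table. Of these, 89 are nuclear and 13 mitochondrial, with 44 assigned to complex I, 4 to complex II, 11 to complex III, 22 to complex IV and 21 to complex V. The symbol rule also takes in rows that are not plain subunits, namely COX7A2L, the read-through loci NDUFC2-KCTD14 and ATP5MF-PTCD1, and the intronless copies UQCRHL and ATP5MGL, and NDUFA4 is counted here with complex IV. The rule uses names and no measured value.

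The study cultured the cells for 48 h and sequenced RNA from 5 control libraries, in 5.5 mM glucose with 32 mM mannitol, a sugar alcohol that balances osmotic pressure, and from 5 HG libraries, in 37.5 mM glucose. Neither group carries a genetic change by the labels. The labels do not say that libraries came from separate cultures, so each p-value measures the spread between these libraries, which may be technical. Control libraries carry the numbers 1 to 5, and HG libraries are named by column (HG_1 to HG_5) because the labels tie those columns to the group only. Library totals ran from 32448991 to 45864176 counts. TXNIP, a glucose-induced gene, stood at 0.978 ± 0.224 CPM (counts scaled to the size of the library, SD, n = 5) in the control group and at 8.72 ± 2.76 CPM in the HG group, with no overlap between the groups.

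Oxidative phosphorylation turns the energy of food molecules into ATP at the inner mitochondrial membrane. Complexes I and II feed electrons from NADH and succinate to ubiquinone, complex III passes them to cytochrome c, complex IV gives them to oxygen, and complex V, the ATP synthase, uses the proton gradient that I, III and IV build up. Complex II is wholly nuclear, while the other complexes combine nuclear subunits with subunits made inside the organelle, and RPE is known as a tissue that relies strongly on this pathway.

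In the HG group, 14 members passed the test (adjusted p under 0.05, edgeR's quasi-likelihood test adjusted over all 14936 rows tested), all of them nuclear and all of them higher than in the control group. They were SDHD of complex II, COX7A2L, which is counted with complex IV, 8 subunits of complex I and 4 of complex V, and no member of complex III passed. Of the 102 members 93 had enough counts to be tested, so 15.1% were called, against 15.4% of all rows tested, and over both directions together the share of members called was near the background. By direction, 7.62% of all rows were called higher and 7.8% lower. No member was called lower, and at an unadjusted p under 0.05 there were 29 members higher and 0 lower, against 14.1% and 14.4% of all rows. The log2 fold change was above 0 in 81 of the 93 members (87.1%), against 50.2% of all rows. The members' median log2 fold change was 0.17, against 0.00 over all rows. Single libraries moved it: the nuclear median of 0.17 became 0.09 without HG_1 and 0.23 without control 2, and the mitochondrial median of 0.15 became 0.06 and 0.24. In cells measured in bulk, fewer cells of a kind and less RNA per cell cannot be told apart, and the same holds here for the number of mitochondria.

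**Figure D1:**
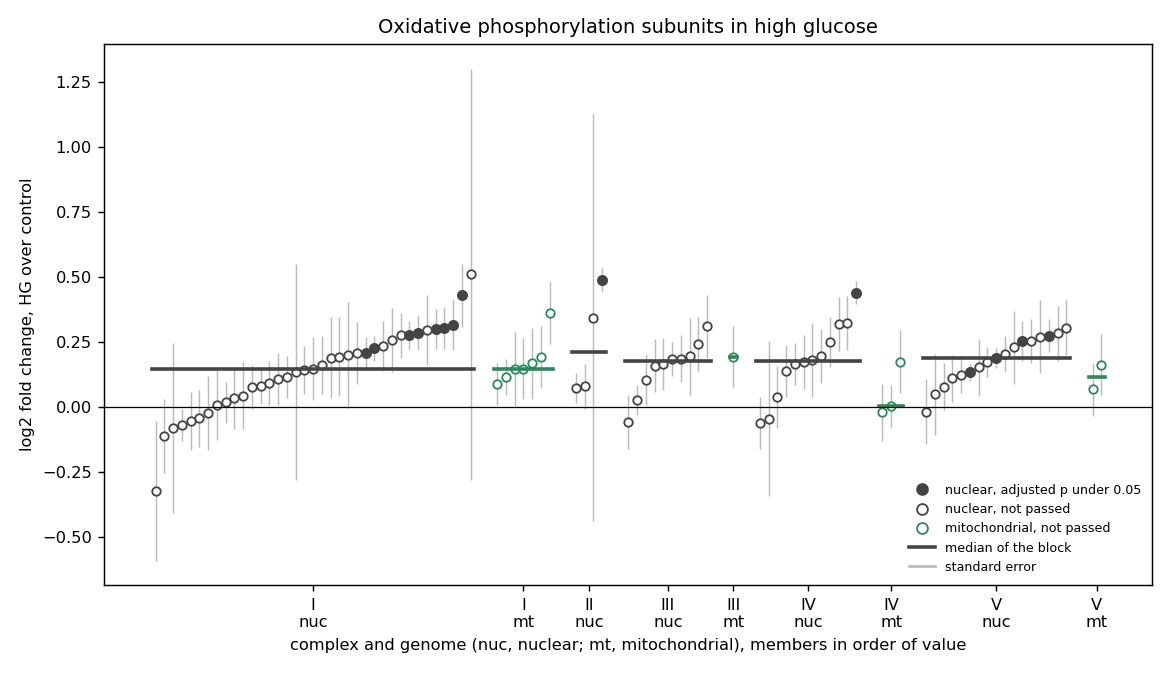
Log2 fold change of HG over control (vertical axis, bars show the standard error) for each of the 93 members tested, in blocks by complex and genome, with filled points for those past an adjusted p of 0.05 and a horizontal line at each block's median. The nuclear block medians lie between 0.15 and 0.21, all 14 filled points are nuclear and above 0, and the 3 mitochondrial mRNAs of complex IV have a median of 0.00.

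Some called members hold short sequence matches near their start that are known for factors of respiratory genes, and they are shown to place these genes beside the regulator values given further on. The stretches are from the RefSeq promoter windows of GRCh38.p14 (250 bases before to 50 after the start), read on the strand of the gene, with the match in capitals. The letters searched on both strands were GCATGCGC for nuclear respiratory factor 1 (NRF1), ACTTCCGG for ETS factors such as GABPA, and AAGATGGCG for YY1.
SDHD, NRF1 letters, chr11:112086754-112086783: gctgtgtttgcGCATGCGCgacgggtgtgc
SDHD, ETS letters, chr11:112086784-112086813: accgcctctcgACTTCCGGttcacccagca
NDUFA5, NRF1 letters on the other strand, chr7:123557958-123557987: gtatgcccatcGCGCATGCgtcaatttttc
NDUFA6, NRF1 letters, chr22:42090920-42090949: tctgtagatgaGCATGCGCagcacccaccg
NDUFA8, NRF1 letters, chr9:122159763-122159792: ttgccggatgcGCATGCGCaggcgccgtgt
NDUFA9, YY1 letters, chr12:4649114-4649143: attgtgggaaAAGATGGCGgctgccgcaca
NDUFS1, ETS letters, chr2:206159584-206159613: aggctggggccACTTCCGGcggaactgcgg
ATP5F1A, ETS letters, chr18:46098327-46098356: cgaggggcagtACTTCCGGgtcaggtgggc
In SDHD the NRF1 and the ETS letters lie in adjoining stretches.

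Promoter windows were found for 69 of the 89 nuclear members. The NRF1 letters were in 14 of them (20.3%), against 3.68% of the 27305 symbols with a window and 6.2% of the 10970 symbols that were also tested. The ETS letters were in 12 (17.4%), against 4.95% and 9.59%. The YY1 letters were in 9 (13%), against 2.14% and 4.44%. A match is only a string of letters, and binding was not measured. Among the 10 called members with a window, 4 held the NRF1 letters, 3 the ETS letters and 2 the YY1 letters.

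Complex I oxidises NADH, and its nuclear subunits fall into the electron input module, the ubiquinone module and a large accessory shell. NDUFS1, an iron-sulphur subunit of the input module, was at 82.8, 60.8, 71.9, 72.0 and 66.4 CPM in control libraries 1 to 5 and at 86.0, 91.6, 79.8, 86.3 and 93.3 CPM in HG_1 to HG_5. Control 1 reached above the lowest HG library, so the groups overlapped, and the log2 fold change was 0.30 ± 0.0795 (standard error of the fit, adjusted p = 0.0252, edgeR). With limma on log2(FPKM + 1) it was 0.15 and was not called (adjusted p = 0.652).

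Of the accessory subunits, NDUFA10 had the smallest adjusted p in complex I, with 81.6, 92.2, 94.5, 87.8 and 94.5 CPM in the control group and 117.3, 103.8, 109.0, 106.8 and 109.7 CPM in the HG group. The groups did not overlap, and the log2 fold change of 0.28 ± 0.0532 (standard error of the fit, adjusted p = 0.00534, edgeR) was called in all 10 fits that each left out a library and in 9 of 12 other settings, limma on FPKM being the exception. NDUFA6 had the largest fold change among the called members of complex I, at a low level of 5.56 ± 0.666 CPM in the control group against 7.50 ± 1.09 CPM in the HG group (SD, n = 5). Its log2 fold change was 0.43 (adjusted p = 0.0360, edgeR), control 2 at 6.71 CPM and HG_5 at 6.69 CPM overlapped, and the call held in 3 of the 10 fits that left out a library. NDUFA8, an accessory subunit facing the intermembrane space, stood at 53.2 ± 5.76 CPM against 66.3 ± 8.49 CPM with a log2 fold change of 0.32 (adjusted p = 0.0491, edgeR), its groups overlapped as well, and the call held in 2 of those 10 fits. NDUFA9, NDUFB5 and NDUFA5 were called with log2 fold changes of 0.30, 0.29 and 0.23 (adjusted p = 0.0224, 0.0153 and 0.0111, edgeR), each without overlap. In all, 8 of the 37 nuclear members of complex I were called higher.

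NDUFV1 and NDUFS7, core subunits of complex I, did not pass on the counts as normalized. NDUFV1, which binds the flavin that takes electrons from NADH, had a fold change of 0.16 on the log2 scale (adjusted p = 0.397, edgeR), and was called only after the correction for GC content and length (0.17, adjusted p = 0.0151, edgeR). NDUFS7, the last iron-sulphur carrier before ubiquinone, had 0.19 (adjusted p = 0.479, edgeR). Both were raised in control 2 and HG_1 relative to the other libraries of their group, NDUFS7 with 55.5 CPM in control 2 against 36.7 to 41.5 CPM in the other controls. NDUFV2 of the input module and NDUFS8 of the ubiquinone module had log2 fold changes nearer to 0, 0.08 and 0.01 (adjusted p = 0.619 and 0.977, edgeR). They were named after their values were seen. NDUFS3, a subunit of the ubiquinone module, had the largest fold change of complex I at 0.51, yet its counts ran from 33 to 722 in the control group and from 63 to 876 in the HG group, and the adjusted p was 0.742 (edgeR). NDUFB9 ranged from 184 to 1334 counts, and NDUFA3 had only 6 to 13 counts in any library. NDUFA11 had 528 counts in HG_1 and 1359 to 2599 in every other library, and its log2 fold change of -0.32 was the lowest of the members (adjusted p = 0.493, edgeR). In the annotation (GENCODE 29), NDUFS3 overlaps KBTBD4 and NDUFB9 overlaps TATDN1. KBTBD4 was at 6.06 and 6.96 CPM in controls 3 and 4, where NDUFS3 was at 1.73 and 0.999 CPM, and at 6.78 to 7.45 CPM in the other controls. In HG_3, where NDUFS3 was at 1.40 CPM, KBTBD4 was at 6.84 CPM, and the cause of the low NDUFS3 values was not tested.

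Complex II, succinate dehydrogenase, belongs to the citric acid cycle as well as to the respiratory chain. SDHD, one of its membrane anchors, was at 76.3, 81.0, 81.3, 83.1 and 77.9 CPM in control libraries and at 122.3, 108.5, 107.5, 111.1 and 111.6 CPM in HG libraries. The groups were far apart, with the lowest HG library well above the highest control. The log2 fold change of 0.49 ± 0.0472 (standard error of the fit, adjusted p = 0.000131, edgeR) was the largest of all called members, a rise of 40.4%. The gene lies on chromosome 11, from 112086773 to 112120013 on the plus strand (GRCh38, GENCODE 29), and its start overlaps TIMM8B on the other strand. The TIMM8B row stood at 30.3 ± 3.88 CPM in the control group and 28.6 ± 3.83 CPM in the HG group, with a log2 fold change of -0.09 (adjusted p = 0.672, edgeR).

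The other 3 subunits of complex II did not pass. SDHA, the flavoprotein that oxidises succinate, had a fold change of 0.08 on the log2 scale (adjusted p = 0.606, edgeR), and SDHC, the other anchor, had 0.08 (adjusted p = 0.456, edgeR). The SDHD and SDHC mRNAs, which encode partners in the same anchor, thus had unequal fold changes, 0.49 and 0.08, a difference that was not tested. SDHB, the iron-sulphur subunit, was erratic, with 0 counts in control 1 and 190 to 683 in the other libraries, and its log2 fold change of 0.35 ± 0.781 (standard error of the fit, adjusted p = 0.829, edgeR), which enters the counts and medians over members, is less than its error. On the per-length scale (FPKM, fragments per unit of transcript length and library size) the control means were 105.6 for SDHC, 56.1 for SDHD, 51.1 for SDHA and 7.14 for SDHB.

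**Figure D2:**
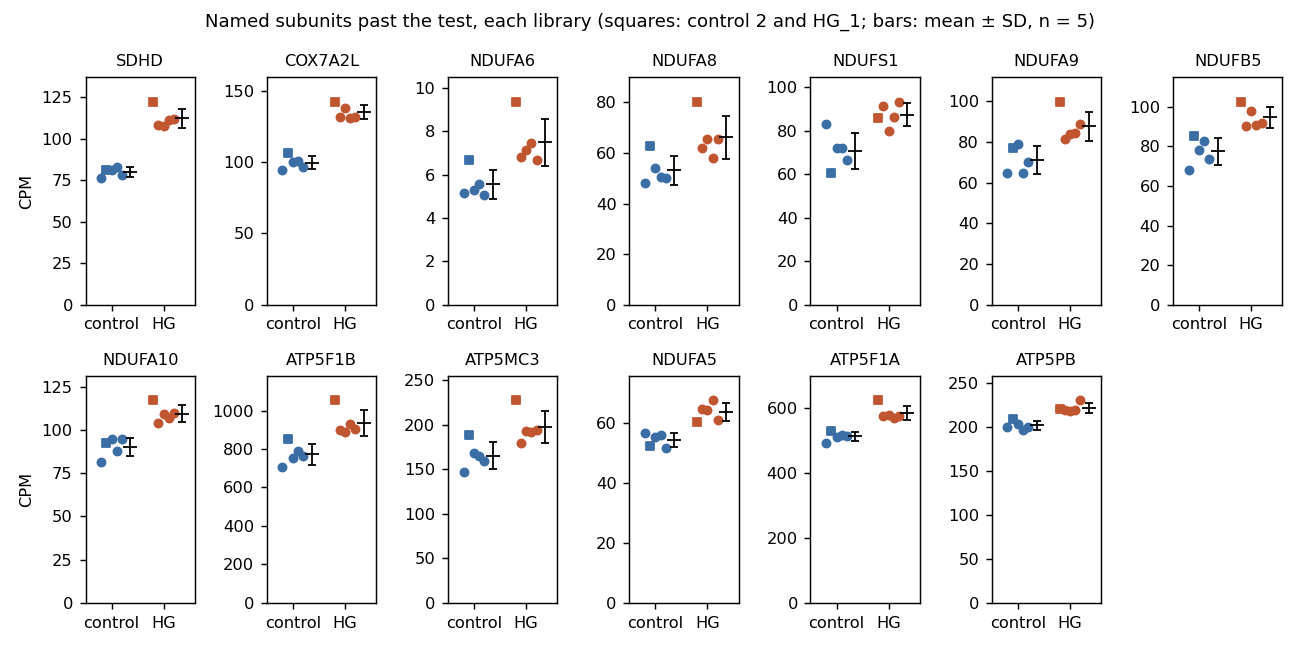
CPM (vertical axis from 0) of 13 members past the test in the 5 control and 5 HG libraries, with squares for control 2 and HG_1 and bars for mean ± SD (n = 5). The groups do not overlap in 9 of the 13 panels, and SDHD and COX7A2L show the widest gaps relative to their spread.

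Complex III had no called member among its 11 rows, although the log2 fold change was above 0 in 10 of them and the nuclear median was 0.18. Its core proteins UQCRC1 and UQCRC2 had log2 fold changes of 0.16 and 0.24 (adjusted p = 0.352 and 0.147, edgeR). The electron-carrying subunits were UQCRFS1, the Rieske protein, at 0.19 (adjusted p = 0.0826, edgeR) and CYC1, cytochrome c1, at 0.31 (adjusted p = 0.114, edgeR). CYC1 was at 66.3, 94.3, 72.9, 66.6 and 69.3 CPM in control libraries and at 115.8, 83.6, 87.9, 90.9 and 80.4 CPM in HG libraries. Control 2 alone reached into the HG range, and without control 2 and HG_1 the log2 fold change of CYC1 was 0.32 (adjusted p = 0.00178, edgeR). UQCRH, the hinge protein, had a fold change of 0.19 on the log2 scale (adjusted p = 0.206, edgeR), and its intronless copy UQCRHL had 0.20 (adjusted p = 0.440, edgeR). Reads of this near-identical pair may have been divided between the rows, and the UQCRHL control mean was 3.04 FPKM against 171.3 FPKM for UQCRH.

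In complex IV, cytochrome c oxidase, the called member was COX7A2L, a factor that joins complexes III and IV into supercomplexes. It was at 94.5, 106.3, 100.0, 100.5 and 96.4 CPM in control libraries and at 142.5, 132.0, 138.3, 131.2 and 131.6 CPM in HG libraries. The groups were well separated, and the log2 fold change was 0.44 ± 0.0451 (standard error of the fit, adjusted p = 0.000176, edgeR), a rise of 35.7%. Its relative COX7A2, the isoform that sits in complex IV itself, had a fold change of 0.25 on the log2 scale (adjusted p = 0.108, edgeR). The heart and muscle isoform COX7A1 had 0 to 20 counts in a library and was not tested.

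The other subunits of complex IV did not pass. COX4I1, which regulates the enzyme, had a fold change of 0.14 on the log2 scale (adjusted p = 0.404, edgeR), and COX5A, its neighbour in the complex, had 0.32 (adjusted p = 0.0635, edgeR). COX6A1 and COX6B1, small subunits at the edge of the enzyme, had log2 fold changes of 0.18 and 0.04 (adjusted p = 0.307 and 0.879, edgeR). COX5B, which binds zinc, had 337 counts in HG_5 and 896 to 1836 in every other library, with a log2 fold change of -0.04 (adjusted p = 0.948, edgeR). NDUFA4, long listed with complex I and later found in complex IV, had a fold change of -0.06 on the log2 scale (adjusted p = 0.761, edgeR). The isoforms restricted to lung, muscle, testis or hypoxia were near absent: COX4I2, COX7B2 and COX8C had 0 counts in all 10 libraries, which allows up to 0.0925 CPM in the shallowest library (3 counts), and COX6A2, COX6B2 and NDUFA4L2 had at most 2, 10 and 8 counts. No shift between isoforms could be measured at these counts.

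Complex V makes ATP in its F1 head. ATP5F1B, the catalytic beta subunit and on the per-length scale the most abundant nuclear member, was at 705.3, 851.2, 752.8, 790.9 and 763.7 CPM in control libraries and at 1055, 899.2, 889.6, 930.4 and 904.2 CPM in HG libraries. The HG libraries all lay above the controls, and the log2 fold change was 0.28 ± 0.0629 (standard error of the fit, adjusted p = 0.0135, edgeR). ATP5F1A, the alpha subunit beside it in the head, was at 492.1, 527.9, 511.1, 516.1 and 514.9 CPM in control libraries and at 624.4, 573.8, 578.6, 570.0 and 574.6 CPM in HG libraries. The groups did not overlap, HG_1 was the highest, and the log2 fold change was 0.19 ± 0.0392 (standard error of the fit, adjusted p = 0.00829, edgeR). The FPKM values of ATP5F1A were 79.7 to 90.1 in the control group and 94.4 to 101.6 in 4 of the HG libraries, but 274.0 in HG_2, where its CPM was not raised, and limma on log2(FPKM + 1) did not call it. ATP5F1C, the central stalk, had a fold change of 0.17 on the log2 scale (adjusted p = 0.0719, edgeR).

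ATP5MC1, ATP5MC2 and ATP5MC3 encode the same c ring protein with different import signals. ATP5MC3 was called, with 165.5 ± 15.0 CPM in the control group and 197.5 ± 18.0 CPM in the HG group (SD, n = 5), a log2 fold change of 0.25 and an overlap between the groups (adjusted p = 0.0465, edgeR), a call held in 2 of the 10 fits that left out a library and in 7 of 12 other settings. ATP5MC1 and ATP5MC2 had log2 fold changes of 0.27 and 0.15 (adjusted p = 0.237 and 0.410, edgeR), so the copies shared a direction and differed in spread. ATP5PB, a peripheral stalk subunit, was called at the smallest fold change of the 14, 0.14 on the log2 scale (standard error 0.0351, adjusted p = 0.0247, edgeR), from a tight 201.5 ± 4.75 to 221.3 ± 5.25 CPM. Of the 17 nuclear members of complex V that were tested, 16 had a log2 fold change above 0, with a median of 0.19. The read-through row ATP5MF-PTCD1 had 443 counts in control 2 and 0 to 6 elsewhere, and it was not tested.

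Of the 93 members tested, 10 had every HG library above every control library, against 6.74% of all rows, and 0 had the reverse, against 6.91%. Among them were SDHD, COX7A2L, NDUFA10, NDUFA5, NDUFA9, NDUFB5, ATP5F1A, ATP5F1B and ATP5PB, and for each the exact permutation p (two-sided, 252 arrangements of the 10 libraries) was 0.00794, the smallest this design allows. Full separation of the groups fixes this p-value, and these members were listed for it, so it adds no support. SDHD, COX7A2L and ATP5F1B were called in every fit, that is, in each of the 10 fits without a library and in 12 other settings. Over the fits that each left out 1 library, the count of members called higher ran from 7, without control 5, to 32, without control 2. The share of all rows called in each of these fits is not given here, so the counts have no background beside them. NDUFA10, NDUFA5, NDUFB5 and ATP5F1A were also called in all 10 of these fits. NDUFA9 was called in 6, and was lost without control 1, control 4, control 5 or HG_5. NDUFS1 was called in 5, and was lost without control 3, control 5, HG_2, HG_4 or HG_5. ATP5PB was called in 4, those without control 2, HG_1, HG_3 or HG_4, and NDUFA6 in 3, those without control 2, HG_1 or HG_5. NDUFA8 was called in 2, without control 2 or HG_4, and ATP5MC3 in 2, without control 2 or HG_2. On the FPKM values, limma on log2(FPKM + 1) called 14 members higher and 0 lower (against 5.43% and 5.07% of all rows), of which 8 were among the 14 called on counts and 6 were not. The 6 not called on FPKM were NDUFA10, NDUFA5, NDUFB5, NDUFS1, ATP5F1A and ATP5MC3, and the log2 fold change of NDUFA5 on that scale was 0.49 (adjusted p = 0.199) against 0.23 on counts.

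The members' levels also moved with a library trend that crosses the groups. In control 2 and HG_1, the slope of log2 counts on GC content was 0.166 and 0.184 per 10 percentage points, and in the remaining 8 libraries it lay between -0.0910 and -0.0041. The members' median GC content was 46.6%, slightly below the 48.2% of all rows, and their median transcript length was 1366 bases, against 3695. The correction used below takes out trends on GC content and length at once, so the part of each was not tested. Control 2 held the highest control value in 81 of the 93 members (87.1%), against 33.3% of all rows, and HG_1 held the highest HG value in 85 (91.4%), against 37.4%. As median deviations over the nuclear members other than SDHB, HG_1 stood at 0.34 and control 2 at 0.17 on the log2 scale, and the other libraries lay between -0.21 and 0.05. Among those other 8 libraries, the 4 controls lay between -0.21 and -0.09 and the 4 HG libraries between -0.02 and 0.05, with no overlap.

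**Figure D3:**
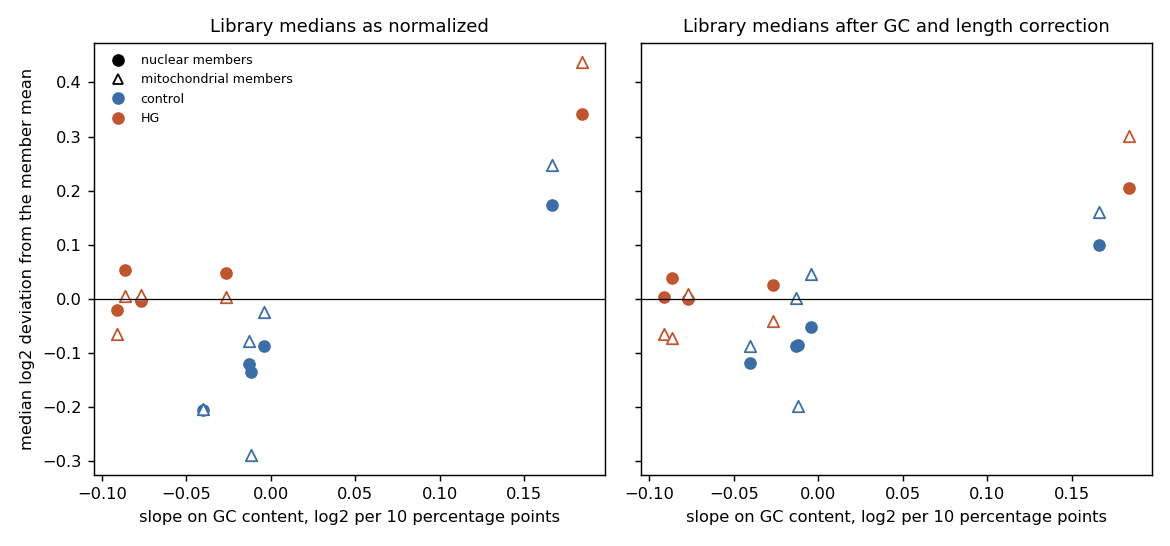
Median log2 deviation of a library's members from their mean over all libraries (vertical axis) against the library's slope of counts on GC content (horizontal axis), for nuclear members (circles) and mitochondrial members (triangles), before and after correction for GC content and length. HG_1 and control 2 lie at the right in both panels, with nuclear medians of 0.34 and 0.17 before and 0.20 and 0.10 after correction.

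With both libraries left out, 42 of 92 members were called higher and 1 lower, where 13.3% of all rows were called higher and 13.8% lower, and all 14 members called with every library were among the 42. Both libraries were picked from these same data and held most of the members' highest values, so leaving them out narrows the groups by construction. The member called lower was NDUFB11, an accessory subunit of complex I, at a log2 fold change of -0.18 (adjusted p = 0.00743, edgeR), chosen for mention after its values were seen. The nuclear median was 0.16. By complex, 12 of the 36 nuclear members tested were then called higher in complex I, 1 of 4 in complex II, 4 of 10 in complex III, 9 of 12 in complex IV and 12 of 17 in complex V. With each library corrected for its trend on GC content and transcript length, 16 members were called higher and 0 lower, against 13.8% and 14.1% of all rows, and the nuclear median fell to 0.12. Over both directions 27.1% of all rows were called without those libraries and 27.9% after the correction. After the correction 17.2% of the members were called, all of them higher, which is below that 27.9%. Log2 fold changes above 0 were found in 78 of 92 members without the libraries (50.3% of all rows). After the correction they were found in 73 of 93 members (78.5%, against 6764 of the 13538 rows), down from 81 of 93. Among the mitochondrial mRNAs they fell from 12 to 9 of 13. In the corrected values 14 members had no overlap in the higher direction (10.3% of all rows) and 0 in the lower (10.7%). Of the 14 called members, 8 were called after the correction, and NDUFA5, NDUFA9, NDUFB5, ATP5F1A, ATP5MC3 and ATP5PB were not. The 8 members gained were NDUFV1, NDUFA12, NDUFB8, UQCRC1, CYC1, COX5A, COX8A and ATP5MK.

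The 13 mitochondrial mRNAs are made from the organelle's own DNA as long precursors that are cut into single messages. Per length they were far more abundant than the nuclear members: the control means ran from 1129 FPKM for MT-ND3 to 8462 FPKM for MT-CO1, and the highest nuclear member, ATP5F1B, was at 406.3 FPKM. The 13 rows took 4.28, 5.44, 4.75, 4.65 and 4.09% of all counts in control libraries 1 to 5 and 5.96, 4.91, 4.77, 4.63 and 4.79% in HG_1 to HG_5. The groups overlapped widely, with HG_1 the highest of all libraries. The summed mitochondrial counts were 6.64 ± 0.346 times the summed nuclear member counts in the control group and 6.30 ± 0.281 times in the HG group (SD, n = 5), a difference that is about the size of the spread.

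With all 10 libraries and TMM scaling, edgeR called no mitochondrial mRNA, 1 had an unadjusted p under 0.05, and DESeq2 called 1, in both cases MT-ND2. edgeR also called MT-ND2 with library size alone, on the rows with GC content and length, and without control 2. MT-ND2, a membrane subunit of complex I, was at 1591, 2118, 1808, 1731 and 1526 CPM in control libraries and at 2955, 2121, 2047, 2062 and 2107 CPM in HG libraries. Control 2 lay within the HG range and HG_1 lay far above it, and the log2 fold change was 0.36 ± 0.119 (standard error of the fit, adjusted p = 0.0643, edgeR). The other membrane subunits of complex I, MT-ND1, MT-ND3, MT-ND4, MT-ND4L, MT-ND5 and MT-ND6, had log2 fold changes of 0.17, 0.19, 0.15, 0.12, 0.09 and 0.15, with adjusted p between 0.323 and 0.563 (edgeR). MT-CYB, the cytochrome b of complex III, had 0.20 (adjusted p = 0.321, edgeR).

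The catalytic core of complex IV is formed by MT-CO1, MT-CO2 and MT-CO3. Their log2 fold changes were 0.00, 0.18 and -0.02 (adjusted p = 0.978, 0.394 and 0.935, edgeR), with MT-CO1 at 13240, 16310, 14120, 14350 and 12720 CPM in control libraries and at 16490, 14190, 13600, 13020 and 13690 CPM in HG libraries. The MT-CO1 values of the groups covered nearly the same range. MT-ATP6 and MT-ATP8, the membrane subunits of complex V, had log2 fold changes of 0.16 and 0.07 (adjusted p = 0.413 and 0.728, edgeR). MT-ATP8 overlaps MT-ATP6 and MT-ND4L overlaps MT-ND4 on the same strand, so their counts depend on how shared reads were assigned. MT-ND6 overlaps no other member but lies on the opposite strand, so its count depends on the strand setting. The sources used here give neither. Without control 2 and HG_1, MT-ND2, MT-ND3, MT-CYB and MT-CO2 were called higher, at log2 fold changes of 0.33, 0.20, 0.18 and 0.17 (adjusted p = 0.00210, 0.0141, 0.0319 and 0.0481, edgeR). After the correction for GC content and length, 0 of 13 were called and the median fell from 0.15 to 0.04.

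Within the mitochondrial counts, the make-up could be read apart from the total. MT-ND2 took 3.71, 3.78, 3.82, 3.72 and 3.75% of the mitochondrial counts in control libraries and 4.78, 4.40, 4.34, 4.50 and 4.46% in HG libraries. The groups did not overlap, the controls lay within a narrow band, and control 2 and HG_1 stood beside the other libraries of their own group on this measure, HG_1 as the highest. MT-CO3 took 10.6, 10.6, 10.4, 10.5 and 10.8% in control libraries and 10.0, 9.40, 9.60, 9.50 and 10.1% in HG libraries, again without overlap and in the other direction. The remaining 11 mRNAs overlapped between the groups as shares of counts. As shares of FPKM the same held for MT-ND2 and MT-CO3, and MT-CYB was also apart, at 6.03 ± 0.104% in the control group and 6.40 ± 0.155% in the HG group. These shares sum to a fixed total, so a higher share of a message lowers the rest, and no test was run on them.

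**Figure D4:**
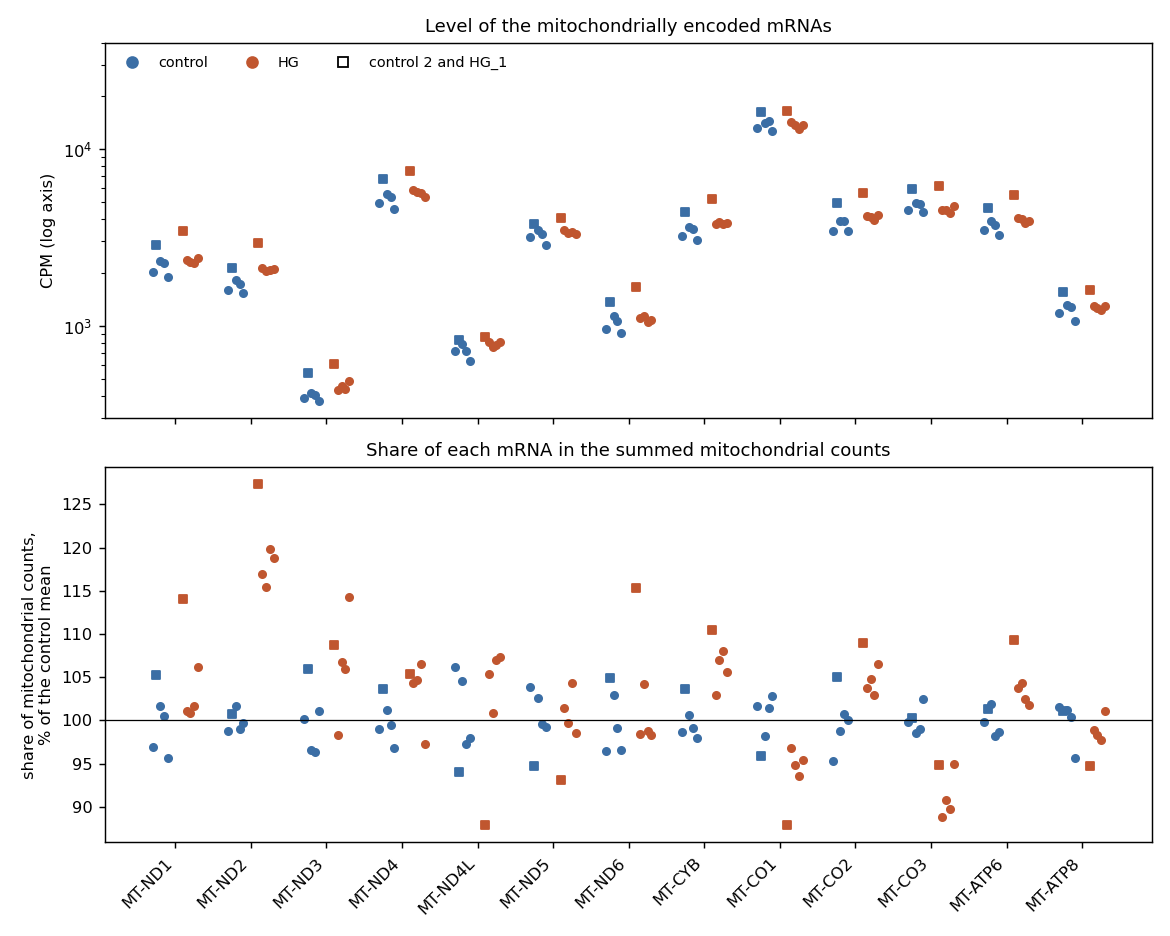
CPM of the 13 mitochondrial mRNAs in each library (top, log axis) and the share of each in the summed mitochondrial counts as a percent of its control mean (bottom), control in blue, HG in orange, squares for control 2 and HG_1. In the top panel both squares lie above their groups and the groups overlap, and in the bottom panel all HG libraries lie above the controls for MT-ND2 and below them for MT-CO3.

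The proteins that assemble the complexes were read from lists of 58 genes. Of these, 12 were called higher and 0 lower (20.7% and 0%), against 7.62% and 7.8% of all rows, and 53 of 58 had a log2 fold change above 0, with a median of 0.14. By complex the calls were 3 of 19 for complex I, 1 of 4 for complex II, 1 of 6 for complex III, 5 of 24 for complex IV and 2 of 5 for complex V. The largest called change in each list was that of NDUFAF4 (log2 fold change 0.35, adjusted p = 0.0187), SDHAF2 (0.20, adjusted p = 0.0393), LYRM7 (0.48, adjusted p = 0.0485), COX20 (0.35, adjusted p = 0.00517) and TMEM70 (0.34, adjusted p = 0.00327), all from edgeR. COX20, a chaperone of the MT-CO2 protein, and TMEM70, which helps to build the c ring of ATP synthase, were higher in every HG library than in every control and were called in all 10 fits that left out a library. NDUFAF4, a complex I factor, was also called in all 10, SDHAF2, which helps SDHA to bind its flavin, in 3 and LYRM7, which escorts the Rieske protein, in 2. After the correction for GC content and length, NDUFAF4 (log2 fold change 0.28, adjusted p = 0.103, edgeR) and SDHAF2 (0.15, adjusted p = 0.0582, edgeR) were no longer called. The assembly lists then held 11 calls higher and 1 lower, against 13.8% and 14.1% of all rows, and without control 2 and HG_1 they held 18 and 0, against 13.3% and 13.8%.

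The mobile carriers and related proteins formed a list of 14, with 4 called higher (28.6%, against 7.62% of all rows) and 0 lower (against 7.8%), 10 log2 fold changes above 0 and a median of 0.18. CYCS, cytochrome c, the carrier between complexes III and IV, was at 212.9, 236.2, 234.8, 246.7 and 219.1 CPM in control libraries and at 281.6, 295.8, 285.6, 329.2 and 305.7 CPM in HG libraries. The groups were well apart, HG_1 was the lowest of the HG libraries, and the log2 fold change was 0.38 ± 0.0566 (standard error of the fit, adjusted p = 0.00135, edgeR). The other called genes of this list were NDUFAB1, an acyl carrier protein that is also a part of complex I, and COQ9 and PDSS2 of ubiquinone synthesis, named after their values were seen. The call of NDUFAB1 (adjusted p = 0.0473, edgeR) held in 1 of the 10 fits that left out a library, the one without control 2. That of PDSS2 held in 5, and was lost without control 4, control 5, HG_2, HG_4 or HG_5, and that of COQ9 held in 9, and was lost without control 5.

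Among 15 genes of mitochondrial DNA upkeep and transcription, 2 were called higher (13.3%, against 7.62% of all rows) and 0 lower (against 7.8%), 10 had a log2 fold change above 0, and the median was 0.07. TFB1M, a methyltransferase of the mitochondrial ribosomal RNA, had the largest change, 0.38 on the log2 scale (adjusted p = 0.0231, edgeR). Among 20 genes of mitochondrial RNA processing, 3 were called higher (15.0%) and 1 lower (5.0%) against the same shares of all rows, 16 had a log2 fold change above 0, and the median was 0.07. FASTKD2, an RNA-binding protein of the mitochondrial matrix, had a fold change of 0.33 on the log2 scale (adjusted p = 0.0124, edgeR), which was 0.19 and not called with limma on log2(FPKM + 1) (adjusted p = 0.244). ELAC2, which cuts tRNAs out of the mitochondrial precursors at their 3′ end, fell by 0.19 on the log2 scale (adjusted p = 0.0279, edgeR), a call held in 4 of the 10 fits that left out a library.

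Among 15 regulators of mitochondrial biogenesis, 2 were called higher (13.3%, against 7.62% of all rows) and 1 lower (6.67%, against 7.8%), 10 had a log2 fold change above 0, and the median was 0.11. PPARGC1A, the coactivator PGC-1alpha, was at 17.0, 21.2, 31.7, 24.1 and 26.1 CPM in control libraries and at 38.9, 49.9, 50.1, 50.1 and 47.4 CPM in HG libraries. The groups did not overlap, and the log2 fold change was 0.98 ± 0.146 (standard error of the fit, adjusted p = 0.00142, edgeR), the largest called change in the pathway lists. The other called regulator was ESRRA, a nuclear receptor that works with this coactivator, at 57.4 ± 6.14 CPM in the control group and 77.2 ± 11.0 CPM in the HG group (log2 fold change 0.43, adjusted p = 0.0174, edgeR), named after its values were seen. NRF1, whose letters were shown above, was at 14.7, 15.8, 13.3, 13.9 and 14.1 CPM in control libraries and at 12.6, 12.0, 11.7, 12.4 and 12.9 CPM in HG libraries. It lay lower in every HG library, with a log2 fold change of -0.22 (adjusted p = 0.0457, edgeR), and the call held in 2 of the 10 fits that left out a library, those without control 3 or HG_1, and in 6 of 12 other settings. Without control 2 and HG_1 together it was not called (-0.20, adjusted p = 0.0522, edgeR). GABPA and YY1, whose letters were also searched, had log2 fold changes of -0.03 and -0.08 (adjusted p = 0.871 and 0.301, edgeR).

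Markers of the labelled cell type were only in part at measurable levels. Of 14 RPE markers 11 were tested, RPE65 had 6 counts in control 2 and 0 elsewhere, and TTR had 0 counts in every library. The summed RPE list ran from 3317 to 4171 CPM in the control group and from 2220 to 2819 CPM in the HG group, and most of it was KRT8 and KRT18. All 11 tested RPE markers had a log2 fold change below 0, with a median of -0.30, and 4 were called lower (36.4%, against 7.8% of all rows). The lowest was BEST1, a chloride channel of RPE, at -4.97 (adjusted p = 0.0670, edgeR). Its control values were 264.0 and 551.5 CPM in controls 1 and 4 and 0.577 to 5.26 CPM in the other controls, and its HG values were 0.981 to 7.79 CPM, so the change rests on those 2 control libraries and the groups overlapped. BEST1 was called after the correction for GC content and length (adjusted p = 0.0302, edgeR) and without control 2 and HG_1 (adjusted p = 0.0401, edgeR). In all, 8 of these markers were called lower after that correction (against 14.1%), and without those libraries also 8 (against 13.8%), with 10 of the 11 below 0. Of the other lists, 2 of 8 photoreceptor, 2 of 6 endothelial, 1 of 7 leukocyte, 0 of 4 melanocyte and 1 of 5 fibroblast markers were tested, with CDH5, CD3E and LUM at 0 in every library and PTPRC at 0 to 4 counts. The summed leukocyte list, nearly all of it CD68, ran from 54.8 to 81.3 CPM in the control group and from 101.7 to 143.8 CPM in the HG group, and the fibroblast list, nearly all of it COL1A1, from 40.4 to 54.3 CPM and from 16.8 to 20.9 CPM. The part of these shifts in the members' values was not tested.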

How the data were processed

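RNA of 5 control and 5 HG libraries of ARPE-19 cells was analysed. The authors deposited read counts, whole numbers per gene without normalization, and FPKM values, in which the authors had scaled fragments by the length of the transcript and the size of the library. The submitters' processing notes name fastp 0.20.1, HISAT2 2.2.1 and GRCh38; the counting program, its strand setting and the annotation are not given in the sources used here. Library totals are given with the results; they limit the precision of low rows to counting error of a few counts. Positions, GC content and transcript length came from GENCODE 29 and promoter windows from RefSeq (GRCh38.p14).

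Counts were tested in R 4.3.3 with edgeR 4.0.16 (default filter on low counts, TMM, quasi-likelihood test, Benjamini-Hochberg adjustment over all 14936 rows tested, calls at an adjusted p under 0.05). CPM values were scaled by TMM. The scripts were tested on simulated data. No list was tested: lists are given as counts and medians beside those over all rows tested. The members and lists were chosen with earlier results of these data known. Genes named are the mitochondrial members, a chosen set of core subunits, isoform families, the 2 largest called changes of each complex in each direction, the largest called change of each list in each direction, and TXNIP. The other called members, and genes said to be so, were named after their values were seen. One member and one marker are not reported here.

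Alternatives were RLE size factors, library size alone, no MT- rows, no filter, at least 10 counts in every sample, DESeq2 1.42.0, limma 3.58.1 on log2(FPKM + 1), log2(FPKM + 0.1) and with a mean FPKM of at least 1, correction for GC content and length by lowess (span 0.3), leaving out control 2 and HG_1, and leaving out each library. Added after seeing the data was the fit without correction on the 13538 rows with GC content and length. Control 2 and HG_1 were picked for leaving out from these same data, as no label marks them out.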

Additional observations from a re-analysis of the deposited data

Results flagged for a closer look

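Within a group of 5 libraries, a library was marked when its gap to the nearest other value took more than 0.71 of the group's range (Dixon's criterion). This was looked at in the tested members whose values the text gives and in the summed shares, ratios and medians, 114 groups of 5 values in all, where chance marks about 1 in 20, or 5.7, and 39 were marked: 27 in HG_1, 11 in control 2 and 1 in HG_5. The members are not independent of each other, since they share these libraries.

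HG_1 stood above the other HG libraries for the mitochondrial mRNAs MT-ND1 (3416 CPM), MT-ND2 (2955 CPM), MT-ND4 (7546 CPM), MT-ND5 (4097 CPM), MT-ND6 (1651 CPM), MT-CYB (5194 CPM), MT-CO2 (5643 CPM), MT-CO3 (6193 CPM), MT-ATP6 (5509 CPM) and MT-ATP8 (1593 CPM). The 13 mitochondrial mRNAs together took 5.96% of all counts in HG_1, against 4.63 to 4.91% in the other HG libraries, and the median deviation of the 13 was 0.44 on the log2 scale against -0.06 to 0.01. For the nuclear members the summed share in HG_1 was 0.889%, against 0.758 to 0.789%, and the median deviation was 0.34 against -0.02 to 0.05.

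The nuclear members marked as high in HG_1 were NDUFV1 (161.9 CPM), NDUFS7 (68.4 CPM) and NDUFB11 (68.4 CPM) of complex I, SDHA (162.0 CPM) and SDHD (122.3 CPM) of complex II, UQCRC1 (252.6 CPM) and UQCRFS1 (139.9 CPM) of complex III, COX4I1 (341.8 CPM) and COX6A1 (172.6 CPM) of complex IV, and ATP5F1A (624.4 CPM), ATP5F1B (1055 CPM) and ATP5MC2 (185.5 CPM) of complex V. Control 2 stood above the other controls for MT-ND3 (537.6 CPM), NDUFS7 (55.5 CPM), NDUFB11 (64.2 CPM), NDUFA4 (170.7 CPM), SDHC (144.8 CPM), CYC1 (94.3 CPM), UQCRH (122.3 CPM), COX4I1 (315.6 CPM), COX6A1 (148.9 CPM), COX7A2 (90.6 CPM) and ATP5MC2 (166.5 CPM). HG_5 stood above the other HG libraries for ATP5PB (230.5 CPM). NDUFA11 was the exception in direction: HG_1, at 13.7 CPM, stood below the other HG libraries, at 41.3 to 46.9 CPM. In the other marks in HG_1 and control 2 that library was the highest of its group, and both carry the rise of counts with GC content given in the report. What part that trend has in these values was not tested.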

How the results depend on the processing

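The 14 members called higher became 23 with library size alone, 23 with DESeq2 and 42 without control 2 and HG_1, where 1 member was also called lower. The fits that left out a library gave 7 to 32 higher and 0 lower: 7 without control 5, 8 without control 1, control 4 or HG_5, 9 without control 3 or HG_2, and 32 without control 2. The other settings gave 12 to 17. Among these alternatives, shares of all rows called are given only for limma on log2(FPKM + 1), the correction for GC content and length, and the fit without control 2 and HG_1. The counts from the remaining fits cannot be set against a background. Of the 14, limma on FPKM and the correction for GC content and length each called 8. The nuclear median log2 fold change ran from 0.12 to 0.19 over the settings and from 0.09 (without HG_1) to 0.23 (without control 2) without a library. The mitochondrial median ran from 0.04 to 0.16 and from 0.06 (without HG_1) to 0.24 (without control 2). No called member among those named changed sign in any setting. The mitochondrial share of counts and the ratio of mitochondrial to nuclear counts moved by less than the spread with counts in tested rows or summed FPKM. No paired analysis was possible because the labels number the control libraries 1 to 5 and letter the HG samples, and the HG columns are tied to the group only. Depth limits the tissue-restricted isoforms and NDUFA3.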
